A study of Homo sapiens with 12 samples.

Results

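The cytosolic ribosomal protein genes were followed on 12 Illumina bead arrays of UM-UC9 and UM-UC14 cells, which are established lines from human bladder (urothelial) cancers. Members were the genes whose symbol is RPL or RPS followed by a number (with an optional A, L or X), together with RPLP0, RPLP1, RPLP2 and RPSA, without the RPS6K kinases, the RPS4Y genes and pseudogenes. Of 81 such genes in the reference, 9 were not analysed here, and 70 of the other 72 had a probe detected above background (detection p below 0.05) on at least 3 arrays, among 13293 genes tested in all. These were 44 proteins of the large (60S) subunit and 26 of the small (40S) subunit. The probes of RPL10 and RPL3L were detected on 0 arrays. No pattern of change was used to choose the members.

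UM-UC9 cells were either untreated or kept for 24 hours with 1 µM rosiglitazone, an agonist of the nuclear receptor PPARG. UM-UC14 cells carried a short hairpin RNA (shRNA) for knockdown, either a non-targeting one or one against FABP4, a fatty acid carrier and PPARG target. Each of the 4 groups held 3 arrays, all cells were grown in the same serum-containing medium, and no label says whether replicates came from separate cultures. A p-value here thus reflects only the spread between these samples, which may be technical.

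Ribosomal proteins assemble with ribosomal RNA into the small subunit, which binds and decodes mRNA, and the large subunit, which joins amino acids and threads the new chain through an exit tunnel. Their mRNAs are among the most abundant in growing cells, and most of them begin with a C followed by a run of pyrimidines, the 5′ terminal oligopyrimidine (TOP) motif, through which the mTOR kinase and the RNA-binding protein LARP1 govern their translation. That control acts on translation, so the amount of such an mRNA, which the arrays measured, can stay level while its protein output changes.

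The start sites of some of the members called in the comparisons are shown because the pyrimidine run at the start is the sequence feature that the family shares. The sequences are from RefSeq (GRCh38.p14), 50 bases before the annotated start and 20 bases from it. Capitals mark the run of C and T that lies within 10 bases of the start. They belong to RPS23 (chr5:82278335-82278404, minus strand), RPL34 (chr4:108620526-108620595, plus strand), RPL13A (chr19:49487558-49487627, plus strand), RPS7 (chr2:3575210-3575279, plus strand), RPL36A (chrX:101390961-101391030, plus strand) and RPL29 (chr3:51995876-51995945, minus strand), and to RPL10L (chr14:46651762-46651831, minus strand), the testis-enriched copy of RPL10, which has no run of 7 or more and so no capitals.
RPS23: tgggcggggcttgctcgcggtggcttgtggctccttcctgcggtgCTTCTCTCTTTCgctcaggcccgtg
RPL34: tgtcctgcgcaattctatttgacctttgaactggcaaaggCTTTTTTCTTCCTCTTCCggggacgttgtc
RPL13A: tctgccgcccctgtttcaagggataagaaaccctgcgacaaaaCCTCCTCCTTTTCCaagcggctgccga
RPS7: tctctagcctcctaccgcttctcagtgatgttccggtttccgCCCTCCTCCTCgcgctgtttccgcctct
RPL36A: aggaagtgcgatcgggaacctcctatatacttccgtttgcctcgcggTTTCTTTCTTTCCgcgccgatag
RPL29: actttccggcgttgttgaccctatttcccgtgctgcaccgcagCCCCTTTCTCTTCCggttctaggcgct
RPL10L: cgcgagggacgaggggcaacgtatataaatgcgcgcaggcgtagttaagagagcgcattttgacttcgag

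RefSeq promoters were matched for 59 of the 70 genes, 68 promoters in all. A run of at least 7 C or T on the strand of the gene, overlapping the 10 bases on either side of the start, was found in 53 of the 68 (77.9%), against 7469 of 35116 promoters of all genes (21.3%). The median longest run there was 11 bases in the members and 4 in all promoters. Of the promoters of members called under rosiglitazone, with FABP4 shRNA or between the lines, 16 of 18 (88.9%) held the run, and of the other members 37 of 50 (74.0%). The run is a description of the letters at the annotated start and was not set against where transcription starts in these cells.

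The members were among the brightest features of every array. Their median stood at the 99.1 to 99.26 percentile of the 25176 probes that passed the detection filter. On an array 15 to 18 of the members were among the 100 brightest probes, and their probes carried 6% to 6.37% of the summed raw intensity. The mean raw intensity was above 20000 for 34 members, while the brightest probe of an array read 33570 to 41730. Loss of differences near the top of the scale (saturation) was not tested. Quantile normalization forces the same distribution on each array, which limits how far a shift of the whole family at its top end can show. With the target distribution set without the members, the median of the members was -0.015 under rosiglitazone and 0.00582 with FABP4 shRNA. Between 20892 and 22407 of 47323 probes were detected on an array. FABP4, the targeted gene, read 11.06, 11.01 and 10.82 (normalized log2 intensity) in untreated UM-UC9, 14.61, 14.71 and 14.66 with rosiglitazone, 13.94, 14.13 and 14.06 in non-targeting UM-UC14 and 10.36, 10.13 and 10.50 with FABP4 shRNA, in the direction the labels imply. All 10 urothelial and epithelial markers were tested, against 4 of 8 fibroblast and 6 of 10 blood and endothelial markers. PTPRC and CD3E of blood and COL3A1, PDGFRB, THY1 and FAP of fibroblasts did not pass the detection filter. With rosiglitazone, 4 of the 10 urothelial markers rose and 2 fell (ELF3 0.87 and KRT7 0.81, FOXA1 -0.89 and PPARG -0.46), LUM rose among fibroblast markers (0.75), and of the blood and endothelial markers PECAM1 rose (0.53) and CD14 fell (-0.52). With FABP4 shRNA, 3 urothelial markers fell (ELF3 -1.60, GATA3 -0.78 and CDH1 -0.48), COL1A1 (0.90) and LUM (0.65) rose, and CDH5 fell (-1.70). CDH5 read 5.62, 7.42 and 7.50 with non-targeting shRNA, so that replicate 1 was nearest to the knockdown arrays at 4.86, 5.19 and 5.40. The part of these markers in the results was not tested. Non-targeting replicate 1 stood apart, with a correlation of 0.9875 and 0.9842 to the other arrays of its group across genes, where the other within-group pairs gave 0.9933 to 0.9971.

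Most ribosomal protein genes passed no test in either treatment, and the family taken whole spread less than genes at large. The middle 50% of the members spanned 0.13 on the log2 scale under rosiglitazone, against 0.47 for all genes, and 0.21 with FABP4 shRNA, against 0.40. The median log2 fold change was -0.01 under rosiglitazone (-0.02 for all genes) and 0.00 with FABP4 shRNA (0.02 for all genes). None of the 70 members changed by 2-fold or more in either treatment, where 542 and 306 of all genes did. Brightness moved with this, and its part was not tested: the 34 members above 20000 ranged from -0.13 to 0.15 under rosiglitazone and from -0.33 to 0.27 with FABP4 shRNA, and among the 35 other genes of that brightness 4 (11.4%) passed the test in each treatment. With FABP4 shRNA the dimmer members changed more than other genes of like brightness. The median absolute change was 0.397 in the 11 members between 1000 and 5000, against 0.212, and 0.274 in the 6 below 1000, against 0.201. It was 0.108 against 0.203 between 5000 and 20000, and 0.0782 against 0.0875 above 20000. Under rosiglitazone it was lower in the members in every band.

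**Figure D1:**
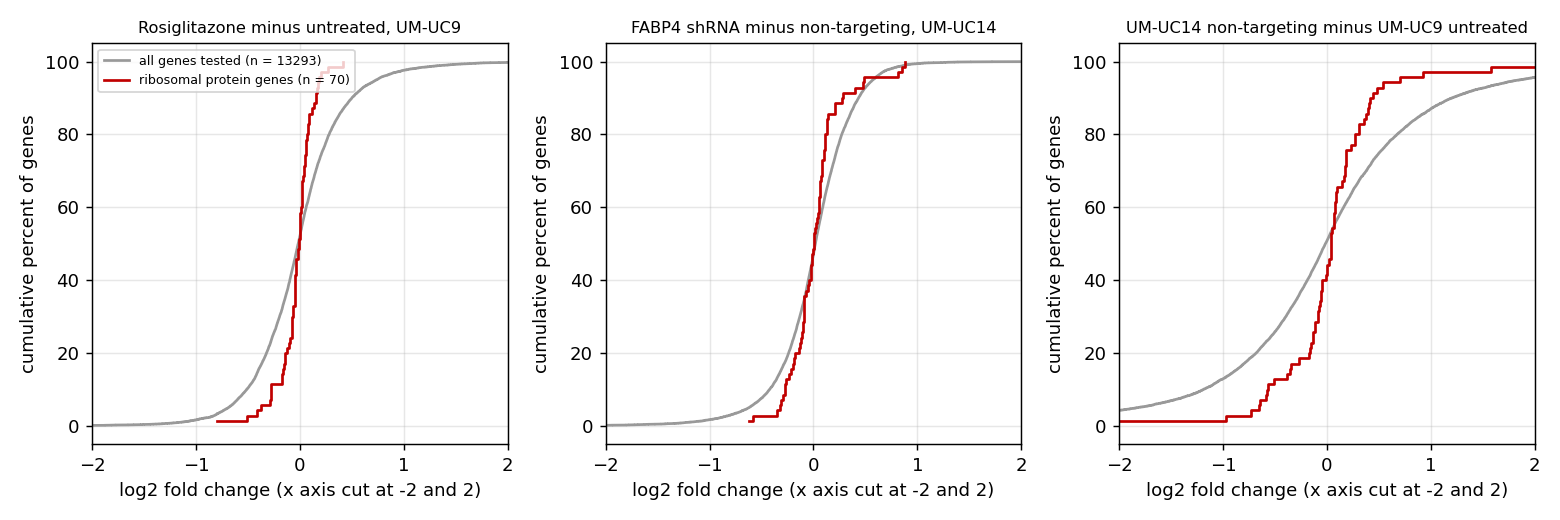
Cumulative percent of genes (y axis) against log2 fold change (x axis, cut at -2 and 2) for the 70 ribosomal protein genes and all 13293 genes tested, in 3 comparisons. The ribosomal protein curve is steeper than that of all genes in each, with medians near 0.

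Under rosiglitazone, 2 members rose and 3 fell (5 of 70, 7.14%, at an adjusted p below 0.05 with limma), against 36% of all genes (17% up and 19% down). The large subunit gave 1 rise and 2 falls among 44 genes and the small subunit 1 of each among 26. The lower share held for members of middle brightness too: of those between 5000 and 20000, 2 of 19 passed (10.5%), against 35.4% of 421 other genes, and of those between 1000 and 5000, 2 of 11 (18.2%), against 43.3% of 2343. Without overlap between treated and untreated arrays, 9 members were higher and 16 lower, where 25.2% of all genes were higher and 28.7% lower (53.9% together). The 9 include RPL10L, whose probe was detected on 0 arrays of either UM-UC9 group. With each array scaled to its median instead of quantile normalization, the calls were 1 up and 4 down.

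RPL34, a large-subunit protein, fell most. It read 12.12, 12.21 and 12.03 in untreated cells and 11.30, 11.37 and 11.29 with rosiglitazone, a change of -0.80 on the log2 scale (SE 0.14, adjusted p = 0.000528). The groups lay well apart, but the second probe of RPL34 gave 0.00. RPS23, which sits at the decoding centre of the small subunit, read 7.52, 7.57 and 7.51 untreated and 7.10, 6.88 and 7.10 with the drug, a change of -0.51 (SE 0.09, adjusted p = 0.000703). All treated arrays were below all untreated ones, and this call held in all 26 alternative settings. RPS23 has 1 probe that passed the detection filter, so settings that change the probe could not alter its values. That probe was dim in UM-UC9, at 157 to 236 in raw intensity. RPL23A, at the mouth of the exit tunnel, where the signal recognition particle docks, read 10.73, 10.64 and 10.68 untreated and 10.39, 10.39 and 10.43 with the drug. Its change was -0.28 (SE 0.08, adjusted p = 0.0164), and it missed the threshold without untreated replicate 1 (-0.25) or without rosiglitazone replicate 1 (-0.27).

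RPL8, a protein close to the peptidyl transferase centre, read 14.05, 13.67 and 14.00 in untreated cells and 14.19, 14.43 and 14.35 with rosiglitazone. The arrays did not overlap, the change was 0.41 (SE 0.11, adjusted p = 0.012), and untreated replicate 2 was the lowest: without it the change was 0.30 and missed the threshold. The second, dimmer probe of RPL8 gave 0.22 and was not called. RPS3, at the mRNA entry channel, read 13.84, 13.87 and 13.83 untreated and 14.14, 14.07 and 14.15 with the drug, a change of 0.27 (SE 0.08, adjusted p = 0.0189). Its groups were separate as well, but the call was lost, at 0.25 to 0.27, without untreated replicate 1 or 3 or rosiglitazone replicate 1 or 3, and at 0.28 after median scaling.

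**Figure D2:**
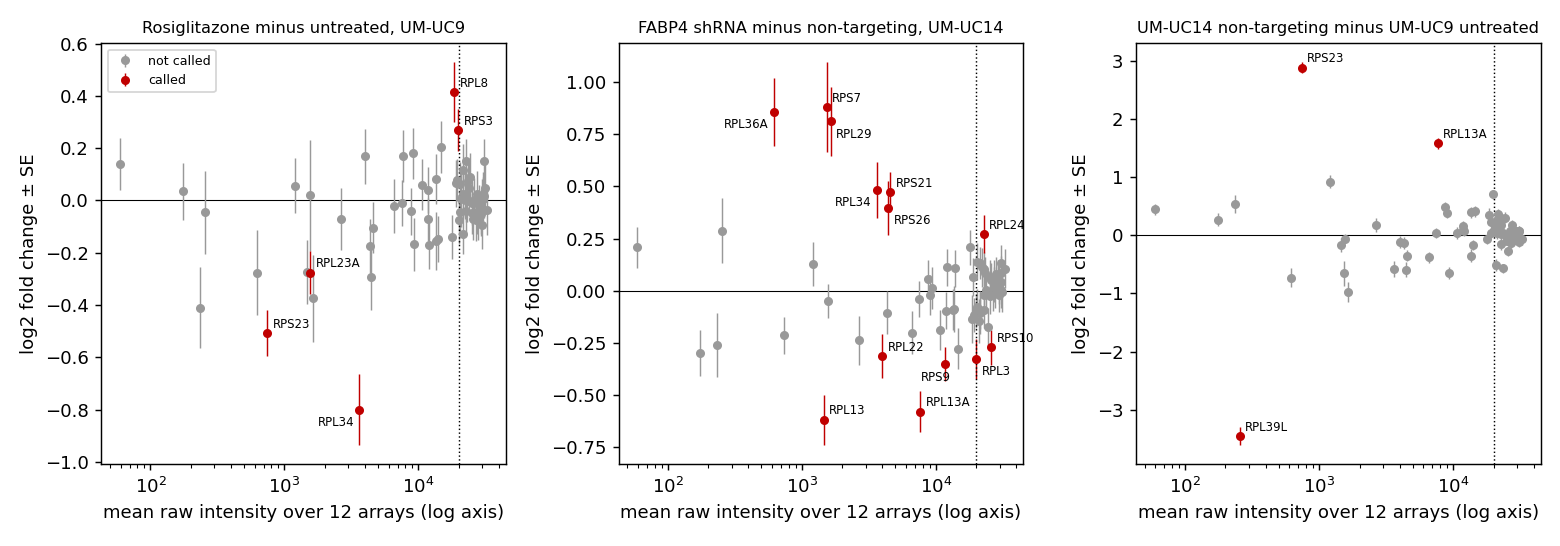
Log2 fold change with its SE (y axis) of each of the 70 members against its mean raw intensity over 12 arrays (x axis, log), in 3 comparisons. Red points passed the test (in the third panel also by at least 2-fold), and the dotted line marks 20000, above which no member changed by more than 0.33 in either treatment.

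With FABP4 shRNA in UM-UC14, 7 members rose and 6 fell (18.6% of 70), against 26.3% of all genes (14.2% up and 12.2% down). The calls were 4 up and 4 down among 44 large-subunit genes and 3 up and 2 down among 26 of the small subunit. Of the 11 members between 1000 and 5000 in raw intensity, 7 passed the test (63.6%, against 31.6% of the other genes there), and of the 34 above 20000, 3 did (8.82%, against 11.4%). After median scaling the calls were 9 up and 2 down, and the median of the members was 0.17 (0.10 for all genes). Without overlap between the groups, 12 members were higher and 12 lower, where 20.1% of all genes were higher and 16.4% lower (36.5% together).

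The members that rose were RPS7, RPL36A, RPL29, RPL34, RPS21, RPS26 and RPL24. RPS7, a small-subunit protein mutated in some families with Diamond-Blackfan anaemia, read 10.65, 9.48 and 9.67 with non-targeting shRNA and 10.85, 10.74 and 10.85 with FABP4 shRNA, a change of 0.88 (SE 0.21, adjusted p = 0.00906). The SE rests on 1 spread shared by all 4 groups, while the standard deviation (SD) of RPS7 was 0.63 in the non-targeting group and 0.04 to 0.06 in the others. In a fit of the compared groups alone RPS7 was not called. Non-targeting replicate 1 was close to the knockdown arrays, and to the 6 UM-UC9 arrays at 10.54 to 10.65, while replicates 2 and 3 were the only low ones. RPL36A read 9.04, 8.25 and 8.59 against 9.45, 9.38 and 9.62, a change of 0.86 (SE 0.16, adjusted p = 0.00222). RPL29, known as a heparin-binding protein at the cell surface as well as in the ribosome, read 10.49, 9.60 and 9.87 against 10.80, 10.73 and 10.86, a change of 0.81 (SE 0.17, adjusted p = 0.00361). In both, replicate 1 was again the highest of the 3 non-targeting arrays. Their SD in that group was 0.40 (RPL36A) and 0.46 (RPL29), against 0.05 to 0.17 in the other groups.

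RPS21, which in yeast takes part in the maturation of small-subunit rRNA, read 12.05, 11.76 and 11.79 against 12.27, 12.33 and 12.42 (0.47, SE 0.10, adjusted p = 0.00365). RPS26, which lies at the mRNA exit channel, read 12.08, 11.50 and 11.65 against 12.09, 12.15 and 12.18 (0.40, SE 0.13, adjusted p = 0.0345), so that replicate 1 of the controls was level with the knockdown arrays. RPL34 read 11.89, 11.24 and 11.51 against 12.00, 11.94 and 12.14 (0.48, SE 0.14, adjusted p = 0.0187), with the same order. RPL24, a protein at the interface of the subunits, rose by 0.27 (SE 0.09, adjusted p = 0.0391), from 14.34, 14.23 and 14.41 to 14.54, 14.57 and 14.67.

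The size of 6 of these 7 rises depended on which non-targeting arrays served as controls. With replicate 1 as the only control, a single array assumed to vary like those of the other groups and giving a larger SE, the count was 1 up and 2 down, and of the genes called with all arrays 0 of the rises and 2 of the falls were called. Some of that loss follows from the single array, as RPL24 shows at 0.26 with replicate 1 alone and 0.28 without it. RPS7 then stood at 0.16, RPL36A at 0.44, RPL29 at 0.31, RPS21 at 0.29, RPL34 at 0.14 and RPS26 at 0.06. Without replicate 1 they were larger than with all arrays, at 1.24, 1.07, 1.06, 0.57, 0.65 and 0.57 in the same order, and 8 members rose and 10 fell in all. Leaving out non-targeting replicate 2 ended the calls of RPL34 (0.33), RPS26 (0.27) and RPL24 (0.22), leaving out replicate 3 ended that of RPS26 (0.35), and leaving out FABP4 shRNA replicate 3 took the rises from 7 to 4. RPL24 was also lost without FABP4 shRNA replicate 1, 2 or 3 (0.24 to 0.30) or untreated UM-UC9 replicate 1 (0.27), and RPS26 without FABP4 shRNA replicate 1, 2 or 3 (0.38 to 0.42).

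Of the 6 members that fell, RPL13A was called in every setting tried. It has 1 probe that passed the detection filter, so settings that change the probe could not alter its values. This large-subunit protein, also known as a part of the interferon-activated GAIT complex that silences translation, read 13.61, 13.77 and 13.61 with non-targeting shRNA and 13.10, 13.16 and 13.01 with FABP4 shRNA, a change of -0.58 (SE 0.10, adjusted p = 0.00119). All non-targeting arrays, replicate 1 included, were above all knockdown arrays, and the change stayed between -0.40 and -0.63 over 26 alternative settings. RPS9, near the mRNA entry of the small subunit, read 13.64, 13.70 and 13.66 against 13.27, 13.31 and 13.37 (-0.35, SE 0.08, adjusted p = 0.00736). Its second probe gave -0.34, and the call was lost after median scaling (-0.19) and when non-targeting replicate 1 alone served as control (-0.33).

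RPL13 read 10.70, 10.73 and 10.32 against 9.87, 10.11 and 9.92 (-0.62, SE 0.12, adjusted p = 0.00267) at the probe used. The groups did not overlap there, but its other probe moved the opposite way, as given below. RPL3, which reaches towards the peptidyl transferase centre, read 14.28, 14.49 and 14.54 against 14.12, 14.08 and 14.13 (-0.33, SE 0.09, adjusted p = 0.0205). RPL22, which is deleted or mutated in some tumours, read 11.71, 12.13 and 11.90 against 11.58, 11.54 and 11.68 (-0.31, SE 0.11, adjusted p = 0.0444), and RPS10, a protein of the 40S head, 14.77, 14.66 and 14.72 against 14.38, 14.52 and 14.45 (-0.27, SE 0.08, adjusted p = 0.0277). The arrays of each gene were separate, but RPL3 missed the threshold without any 1 of non-targeting replicates 2 and 3 or the knockdown arrays (-0.28 to -0.34), RPL22 without any array other than non-targeting replicate 1 (-0.21 to -0.35), and RPS10 without non-targeting replicate 3 or knockdown replicate 1 or 3 (-0.24 to -0.27). After median scaling RPS10 stood at -0.08, RPL22 at -0.11 and RPL3 at -0.18, none of them called. Without non-targeting replicate 3, knockdown replicate 1 or knockdown replicate 3, 3 members fell in place of 6.

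**Figure D3:**
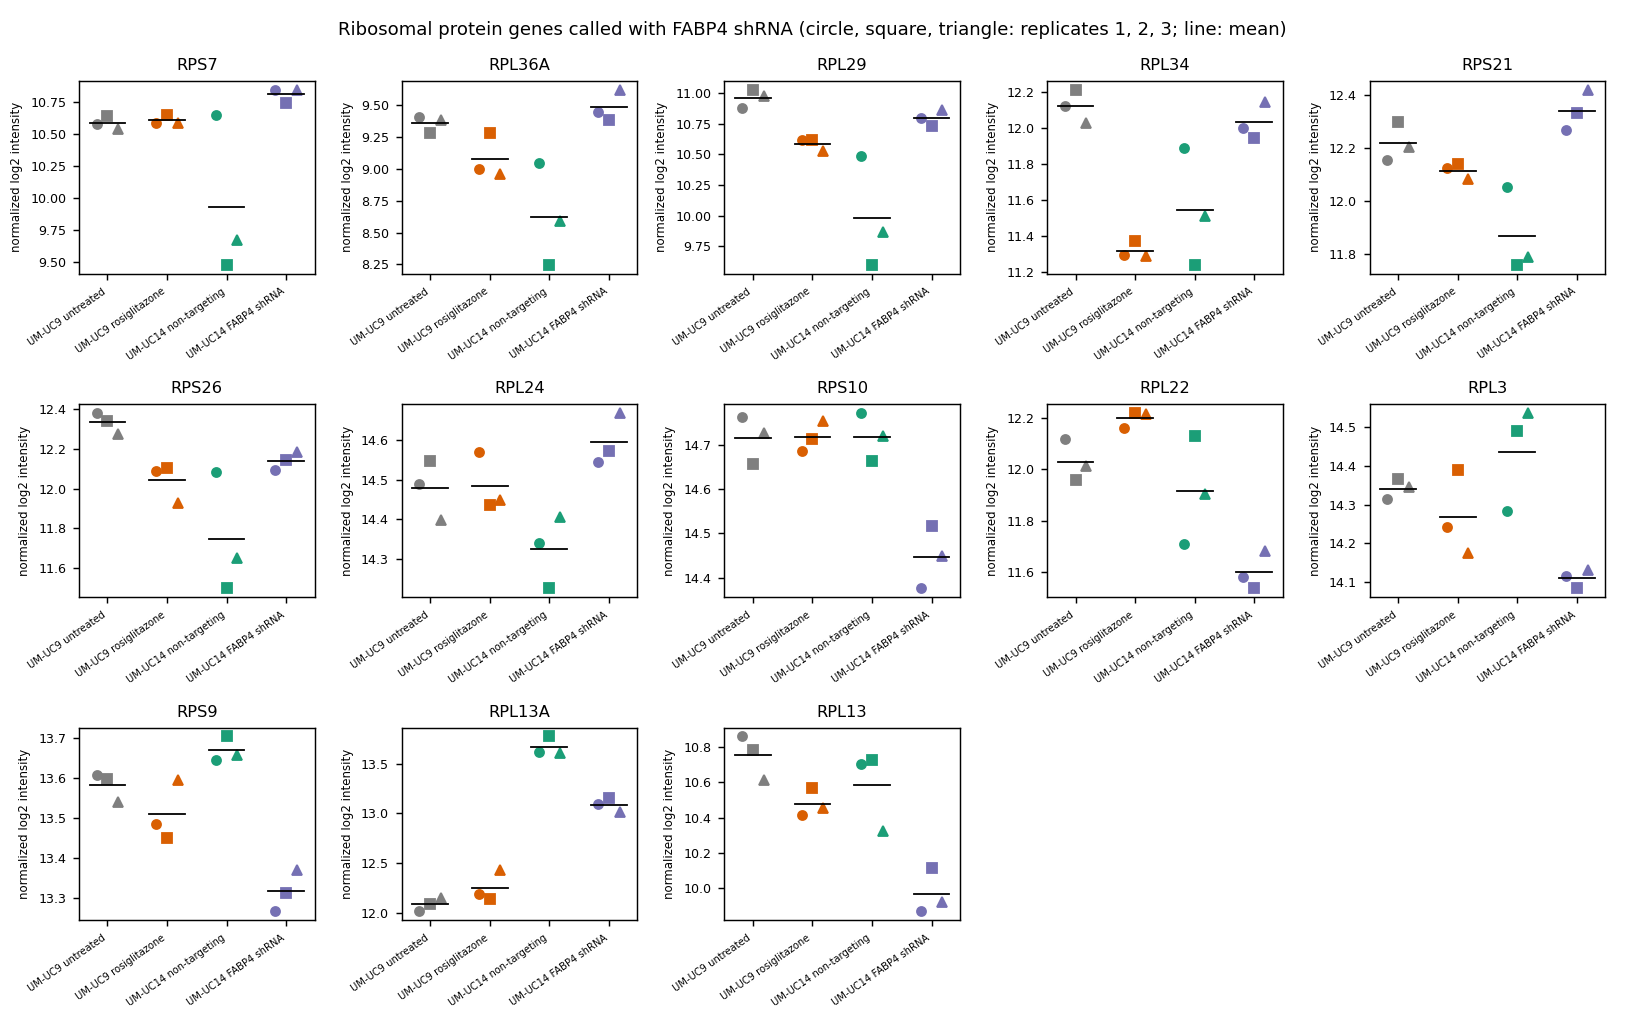
Normalized log2 intensity (y axis, scaled per gene) in the 4 groups for the 13 members called with FABP4 shRNA. Points are arrays, with circle, square and triangle for replicates 1, 2 and 3, and lines are group means. In RPS7, RPL36A, RPL29, RPL34, RPS21 and RPS26 the non-targeting circle lies above the square and triangle, and in RPL13A all non-targeting arrays lie above the knockdown arrays.

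Different probes of 1 gene did not always move together. In the FABP4 shRNA comparison, 32 members had more than 1 kept probe, and all probes of a gene had the same sign in 13 of them. Counting every kept probe, 18 of 114 rose (15.8%, against 11.4% of all probes) and 8 fell (7.02%, against 10%). RPL13 had probes called in opposite directions: its dimmer probe read 8.73, 7.98 and 7.69 with non-targeting shRNA and 9.40, 9.23 and 9.37 with FABP4 shRNA, a rise of 1.20, beside the fall of 0.62 at the brighter one. RPL32 did too, with 1 dim probe at 0.48 and another at -0.33, while its brightest probe gave -0.02.

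Further dim probes rose where the brightest probe of the gene was not called, and these genes were singled out after their values were seen. They were probes of RPL6 (1.15), RPL36 (1.04), RPS15 (1.03), RPL8 (0.86), RPS24 (0.82), RPL41 (0.63) and RPL37A (0.44), while a dim probe of RPS29 fell by 1.25. The RPL36 probe read 7.96, 6.54 and 7.27 with non-targeting shRNA and 8.36, 8.22 and 8.31 with FABP4 shRNA, and the RPL6 probe 11.07, 10.32 and 10.51 against 11.81, 11.80 and 11.74. Non-targeting replicate 1 was the highest control array at both of these probes as well, though not at the RPL41 probe (6.71, 6.16 and 6.72). The probes agreed for RPS7 (0.88 and 0.99), RPL29 (0.81 and 0.81), RPS26 (0.40 and 0.91) and RPS9 (-0.35 and -0.34). Which transcript form or processed gene copy each probe reads was not analysed here, and ribosomal proteins have many near-identical pseudogenes.

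**Figure D4:**
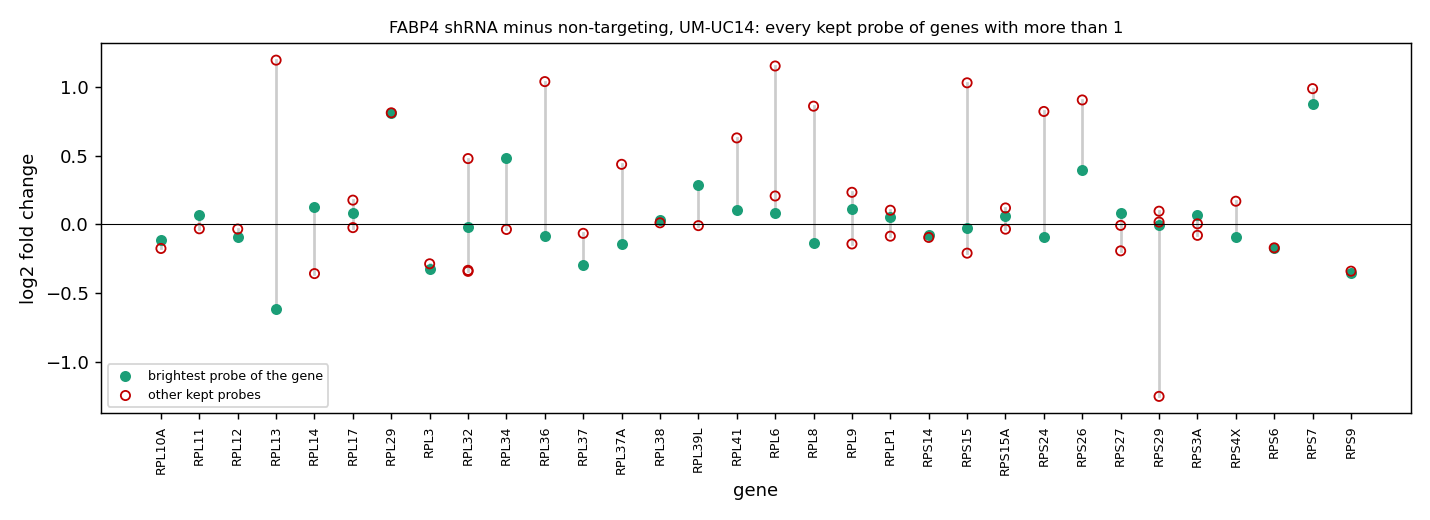
Log2 fold change with FABP4 shRNA (y axis) of every kept probe of the 32 members with more than 1 (x axis, genes by name). Filled points are the brightest probe of each gene, which represents it in the tests, and open points are its other probes. The probes of RPL13 lie at -0.62 and 1.20, and those of RPS7, RPL29 and RPS9 lie close together.

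Of the 70 members, 53 were called in neither treatment, and 1, RPL34, was called in both, down with rosiglitazone and up with FABP4 shRNA. Among all genes, 49.3% were called in neither and 4.97% showed that combination. The change under rosiglitazone minus the change with FABP4 shRNA passed its own test for 12 members, 5 up and 7 down (17.1%, against 41.5% of all genes, 19.1% up and 22.4% down), and after median scaling for 1 up and 12 down. The drug was given to UM-UC9 and the hairpin to UM-UC14, so treatment and line cannot be told apart in this difference. RPL34 differed most (-1.28, adjusted p = 0.000207), but its second probe gave 0.04. RPL29 (-1.19), RPL36A (-1.13), RPS7 (-0.86), RPS26 (-0.69) and RPS21 (-0.58) had a lower change under the drug than with the shRNA, all resting on the non-targeting arrays described above, and RPS13 (-0.35) did as well. RPL13A (0.75, adjusted p = 0.00101), RPL8 (0.55), RPL22 (0.48), RPS2 (0.48) and RPS3 (0.37) had a higher one. The second, dimmer probe of RPL8 went the opposite way, at -0.64, and passed the test among all kept probes.

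The control states of the lines were compared as non-targeting UM-UC14 minus untreated UM-UC9. They share their arrays with the treatment comparisons, and line and hairpin vector cannot be told apart. By an adjusted p below 0.05 and at least 2-fold, 2 members were higher in UM-UC14 and 1 lower (4.29%, against 25.9% of all genes, 13% in each direction), and 2 lower after median scaling. At any fold 17 were higher and 13 lower, against 33.2% and 34.6% of all genes (67.8% together). Without overlap between the control groups, 23 were higher and 15 lower, against 33.4% and 34.7% (68.1% together). The 17 and the 23 include RPL10L, which was detected on 0 untreated UM-UC9 arrays and 1 non-targeting array. The median of the members was 0.04 (-0.02 for all genes), and -0.15 after median scaling (-0.15 for all genes), so that its sign depended on the scaling.

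RPS23 differed most upward. It read 7.52, 7.57 and 7.51 in untreated UM-UC9 and 10.50, 10.41 and 10.35 in non-targeting UM-UC14, a log2 difference of 2.89 (SE 0.09, adjusted p = 1.91e-12), or 7.39-fold. With FABP4 shRNA it read 10.19, 10.24 and 10.19, and all UM-UC14 arrays lay above all UM-UC9 arrays with or without treatment. RPL13A read 12.01, 12.09 and 12.15 in UM-UC9 and 13.61, 13.77 and 13.61 in UM-UC14, a difference of 1.58 (SE 0.10, adjusted p = 4.66e-09). Both calls held in all 26 alternative settings, but each of these genes had 1 kept probe, so settings that change the probe could not alter its values. The RPS23 probe was dim in untreated UM-UC9, at 208 to 236 in raw intensity, against 1219 to 1538 in non-targeting UM-UC14.

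RPL39L, the copy of RPL39 that is best known from the testis, differed most downward. It read 8.72, 8.62 and 8.57 in untreated UM-UC9 and 4.77, 5.57 and 5.21 in non-targeting UM-UC14, where it was detected on 2 of 3 arrays. The difference was -3.45 (SE 0.16, adjusted p = 1.35e-10), with the UM-UC14 values close to background. Its second probe, detected on 7 of 12 arrays, read 8.31, 8.23 and 8.39 against 4.61, 4.75 and 4.44. Rosiglitazone left it at 8.45, 8.72 and 8.59 and FABP4 shRNA at 5.55, 5.39 and 5.48, neither called. Below the 2-fold rule stood RPL29 (-0.98), RPL14 (0.92), RPL36A (-0.73) and RPS3 (0.71), named after their values were seen. Those of RPL29 and RPL36A rest on the non-targeting arrays described above. With FABP4 shRNA RPL29 read 10.80, 10.73 and 10.86, against 10.88, 11.03 and 10.98 in untreated UM-UC9. RPL36A read 9.45, 9.38 and 9.62 with that shRNA, against 9.41, 9.28 and 9.38. The other probe of RPL14 went the opposite way, at -0.77.

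**Figure D5:**
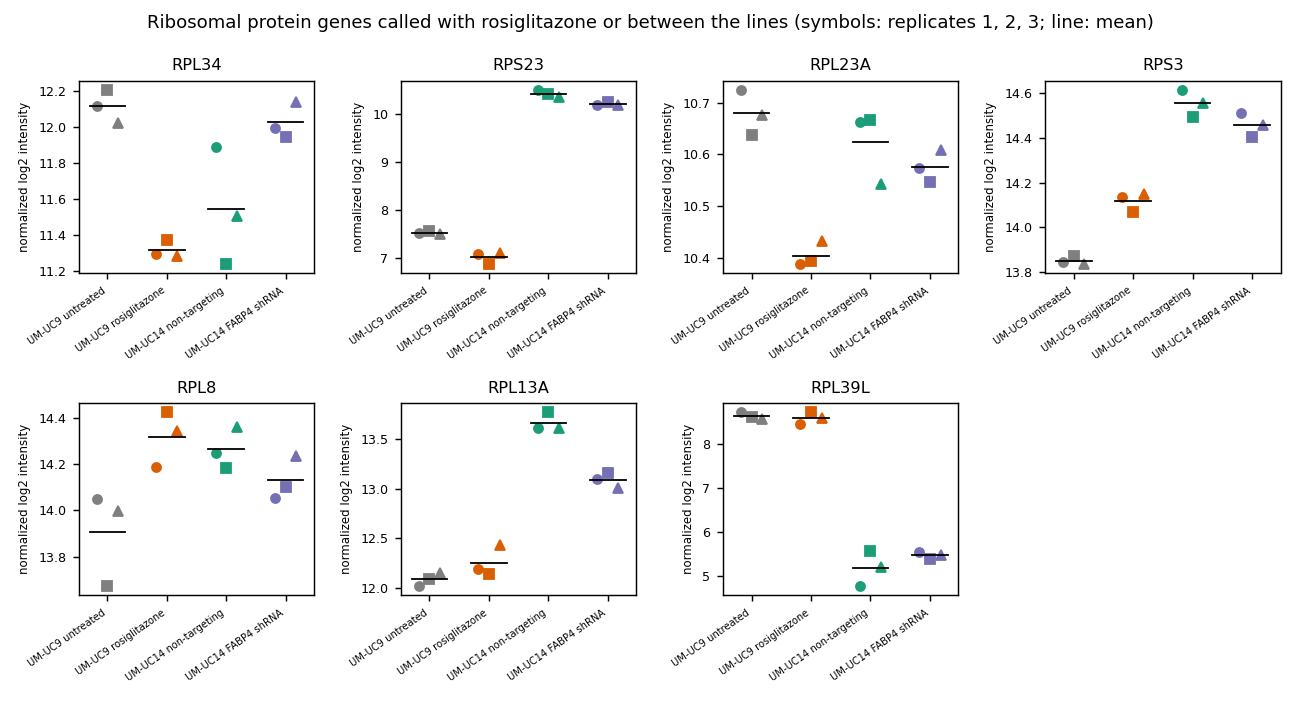
Normalized log2 intensity (y axis, scaled per gene) in the 4 groups for the members called with rosiglitazone or between the lines. Points are arrays, with circle, square and triangle for replicates 1, 2 and 3, and lines are group means. RPS23 and RPL13A lie higher in UM-UC14 and RPL39L higher in UM-UC9, with or without treatment.

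By place in the ribosome the counts were small, and they are to be read beside the 36% of all genes called under rosiglitazone, 26.3% with FABP4 shRNA and 25.9% between the lines. None of the 3 tested proteins of the stalk that recruits elongation factors (RPLP1, RPLP2 and RPL12) was called in either treatment or between the lines, with changes of -0.05 to 0.15 under rosiglitazone. Neither was RPL5 or RPL11, which join 5S rRNA before it enters the large subunit and bind MDM2 when ribosome assembly fails. Of 8 exit tunnel proteins, RPL23A alone was called, under rosiglitazone. Of 4 proteins near the peptidyl transferase centre, RPL8 rose with the drug and RPL3 fell with the shRNA, and of 4 at the mRNA entry and decoding site, RPS3 rose and RPS23 fell with the drug. At the mRNA exit, 1 of 3 rose with the shRNA (RPS26), and of 11 proteins of the 40S head, RPS3 rose with the drug and RPS10 fell with the shRNA. Of 16 tested genes mutated in Diamond-Blackfan anaemia, a failure of red cell formation, 0 passed the test under rosiglitazone, and with FABP4 shRNA RPS7 and RPS26 rose and RPS10 fell.

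RPS6, the small-subunit protein that the S6 kinases phosphorylate, was not called in either treatment, at 0.09 under rosiglitazone and -0.17 with FABP4 shRNA. RPS27L, a p53-inducible copy of RPS27, was not called in any comparison, with arrays between 11.83 and 12.22. RPL10L was detected on none of the UM-UC9 arrays, on 1 non-targeting array and on all 3 FABP4 shRNA arrays, with values of 4.41 to 5.13 near background.

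RPL22L1, a paralog of RPL22 outside the naming rule, read 7.22, 7.07 and 7.06 in untreated UM-UC9 and 5.73, 5.72 and 5.77 with rosiglitazone, a change of -1.37 (SE 0.13, adjusted p = 4.25e-06). In non-targeting UM-UC14 it read 5.14, 5.60 and 5.37, a difference between the lines of -1.75 (adjusted p = 3.25e-08), and with FABP4 shRNA 5.09, 5.00 and 5.44. Treated UM-UC9 cells thus stood above the UM-UC14 arrays and well below untreated ones, while RPL22 itself was not called under rosiglitazone. Of the 4 paralogs tested, RPL26L1 (-0.32) and RPL7L1 (-0.38) fell with rosiglitazone too, RPL26L1 rose with FABP4 shRNA (0.44), and RPL36AL was not called in either. FAU, which encodes RPS30 as a fusion, was not called in either treatment (-0.24 and 0.16).

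Dedicated chaperones hold new ribosomal proteins until they reach the ribosome. Of the 7 chaperones and binding partners listed, 4 fell and 0 rose under rosiglitazone, and 4 rose and 0 fell with FABP4 shRNA, where 19% of all genes fell with the drug and 14.2% rose with the shRNA. The list was written with earlier results of these data known. GRWD1, a chaperone of RPL3, read 9.99, 10.09 and 10.13 untreated, 9.03, 9.01 and 8.63 with the drug, 9.67, 8.94 and 8.83 with non-targeting shRNA and 9.78, 9.73 and 9.88 with FABP4 shRNA. Its changes were -1.18 (adjusted p = 0.00024) and 0.65 (adjusted p = 0.0173), and non-targeting replicate 1 was again near the knockdown arrays. LTV1, an assembly factor of the 40S head, changed by -0.56 and 0.52 (adjusted p = 0.00815 and 0.0179). It read 9.58, 9.31 and 8.88 with non-targeting shRNA, replicate 1 being nearest to the knockdown arrays at 9.93, 9.73 and 9.68. The same order held for PDCD2L of the list, at 9.19, 8.84 and 8.34 against 9.30, 9.23 and 9.32. HEATR3, which helps to carry RPL5 into the nucleus, rose by 0.71 with the shRNA (adjusted p = 0.0017). The medians of the list were -0.34 and 0.49, against -0.02 and 0.02 for all genes.

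Other mRNAs of the TOP class gave 0 rises and 2 falls among 15 genes under rosiglitazone and 1 rise and 4 falls with FABP4 shRNA, the shares of all genes called being 36% and 26.3% for these and the next lists. NAP1L1, a histone chaperone, and HNRNPA1, a splicing regulator, fell with the drug (-0.56 and -0.47), and HNRNPA1 rose with the shRNA (0.45). The translation factors EIF3H (-0.54) and EEF1G (-0.42) fell most with the shRNA. Of 7 TOP host genes of small nucleolar RNAs, 3 fell with rosiglitazone, SNHG1 (-0.60) and SNHG12 (-0.58) most, and 2 with FABP4 shRNA, EPB41L4A-AS1 (-0.87) and SNHG6 (-0.26). Of 12 tested genes listed with mTOR and the control of TOP translation, 3 rose and 3 fell with the drug and 3 rose and 0 fell with the shRNA. LARP1 was not among these 12, and the part of each gene in TOP translation was not tested. RPTOR, the mTORC1 scaffold, read 7.14, 7.07 and 6.94 untreated and 6.40, 6.38 and 6.35 with rosiglitazone (-0.67, adjusted p = 0.000158). It read 6.72, 6.48 and 6.40 with non-targeting and 7.10, 7.15 and 7.16 with FABP4 shRNA (0.60, adjusted p = 0.00087), with no overlap in either line. LARP4, an RNA-binding protein, also fell with the drug (-0.56). TSC2, an inhibitor of mTORC1, rose with the drug (0.42), as did RHEB, its activator (0.27), and EIF4EBP2, a repressor of cap-dependent translation (0.34). EIF4EBP2 (0.38) and RPS6KB2, an S6 kinase (0.47), rose with the shRNA. The groups of RPS6KB2 overlapped, at 10.87, 10.11 and 10.25 with non-targeting and 10.95, 10.96 and 10.72 with FABP4 shRNA, replicate 1 again being the highest control.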

How the data were processed

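The authors deposited raw bead intensity for 47323 probes on each of 12 arrays, with a detection p-value per probe in the deposited table. The smallest nonzero detection p corresponds to about 770 negative controls, a number inferred here. They also deposited processed log2 values, which lay within 0.0106 of the raw table's log2 intensity after quantile normalization and served as an alternative. No source used here names the scanner software. Raw intensities were background corrected, quantile normalized and put on the log2 scale with limma's neqc (limma 3.58.1, R 4.3.3, offset 16). A probe was kept when its detection p was below 0.05 on 3 or more arrays. Each gene was represented by its kept probe with the highest mean. Gene names came from the platform annotation, which gave 1 gene for 30113 probes, several for 8 and none for 17202, and 30074 matched RefSeq by gene ID.

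One limma model (lmFit, eBayes), with a mean for each group, was fitted to all 12 arrays, with 8 residual degrees of freedom. Benjamini-Hochberg adjusted p-values run over all 13293 genes. A call needed an adjusted p below 0.05, and between the lines at least 2-fold. No test was made of the family as a set. The fit was tested on simulated data. Up to 10 called members per direction are named for each treatment and for the lines, with fixed paralogs and RPS6. For other lists the plan was up to 2 called genes each way, and for some of them more are named. Members and lists were chosen with earlier results of these data known. Alternatives were other normalizations, detection filters, probe choices, weights and designs, and each array left out in turn. The number of arrays limits the precision.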

Additional observations from a re-analysis of the deposited data

How the results depend on the processing

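Median scaling gave 1 rise with rosiglitazone, 2 falls with FABP4 shRNA (member median 0.166), 1 rise and 12 falls in the difference (median -0.152) and 2 members lower in UM-UC14 (median -0.152). With the mean of all kept probes of a gene, 7 members fell with rosiglitazone (median -0.0404), 11 rose with FABP4 shRNA, 13 were lower in the difference and 3 lower in UM-UC14 (median 0.00479). With the dimmest kept probe these were 7 (median -0.0438), 13, 15 (median -0.102) and 9 (median 0.00147). The RPL34 values then reversed to 0.00356 (rosiglitazone), -0.0371 (FABP4 shRNA) and 0.0407 (difference), and RPL13 with FABP4 shRNA reversed to 1.2, and to 0.289 with the mean of its probes. Counting a member where any of its kept probes was called, a setting chosen after seeing the data, 8 fell with rosiglitazone, 15 rose with FABP4 shRNA, 17 were lower in the difference and 9 lower in UM-UC14. The 36 members left without the brightest had medians of -0.0433 with rosiglitazone and -0.0678 with FABP4 shRNA. Requiring detection on all 12 arrays removed RPL39L and left 0 members lower in UM-UC14. Array weights gave 8 falls with rosiglitazone, 8 rises in the difference and 2 lower in UM-UC14. Fits of the compared groups alone gave 7 falls with rosiglitazone and 3 rises and 3 falls with FABP4 shRNA, with RPS7 not called. Non-targeting replicate 1 as the only control gave 8 falls with rosiglitazone, 1 rise and 2 falls with FABP4 shRNA and a median difference of -0.0256. The causes were not tested.

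Leaving out 1 array at a time gave 1 to 2 rises and 2 to 6 falls with rosiglitazone (median -0.0247 to -0.000721), 4 to 8 rises and 3 to 10 falls with FABP4 shRNA (median -0.0249 to 0.0251), 4 to 8 rises and 5 to 10 falls in the difference (median -0.0609 to -0.0304), and 2 to 2 higher and 1 to 3 lower in UM-UC14 (median 0.0124 to 0.0497). Same-numbered arrays deviated together at -0.0863 to 0.147, so the numbers were not taken as pairs. With the replicate block, 2 members rose and 4 fell with rosiglitazone and 6 rose and 6 fell with FABP4 shRNA, so that RPL24 (0.271) and RPL22 (-0.313) were lost and 1 fall was added. The RPS23 calls with rosiglitazone and between the lines, RPL13A with FABP4 shRNA and between the lines, and RPL39L between the lines held in every alternative that gave a value. RPS23 and RPL13A have 1 kept probe each, so the choice of probe could not alter their values.

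Saturation at bright probes was not tested, and brightness of different probes is no measure of relative mRNA amounts. Signal over background limits RPL10L, detected on 4 arrays, and RPL39L, detected on 11.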

Other observations

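Dim probes of bright genes also moved with rosiglitazone in UM-UC9, and these were noticed after their values were seen. The brightest probe of RPL32, a large-subunit protein, gave 0.00, while its 3 dim probes gave -0.60, -0.60 and -0.61. The last of these read 8.16, 8.20 and 8.28 untreated and 7.54, 7.73 and 7.54 with the drug. A dim probe of RPL37A, a large-subunit zinc-binding protein, read 6.52, 6.63 and 6.65 untreated and 5.98, 5.92 and 5.78 with the drug, a change of -0.71, beside 0.00 at its brightest probe. A dim probe of RPS29, a small-subunit protein, rose by 0.66, beside 0.05 at its brightest probe. In RPL32 and RPL37A the treated and untreated arrays did not overlap at the dim probes whose arrays are given. Counting every kept member probe, 3 of 114 rose with rosiglitazone (2.63%, against 13.9% of all probes) and 10 fell (8.77%, against 14.7%).

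RPL17, whose product lines the exit tunnel, gave the same direction between the lines at all 3 of its probes: -0.57, -0.70 and -1.60 in non-targeting UM-UC14 minus untreated UM-UC9. Across the family, all kept probes had the same sign between the lines in 23 of the 32 members with more than 1. This was so in 14 of 32 under rosiglitazone and 13 of 32 with FABP4 shRNA. Between the lines, 4 members had probes with an adjusted p below 0.05 in opposite directions, counted at any fold and so without the 2-fold rule. The share of all genes with such probes was not computed.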
